A study of Mus musculus with 53 samples.

Results

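Desmosomes are the spot-like junctions that tie the keratin filaments of neighbouring epithelial cells together. The desmosome components examined here were 10 mouse genes, namely Dsc1, Dsc2, Dsc3, Dsg2, Dsg3, Dsp, Pkp1, Pkp2, Pkp3 and Perp. They were taken by gene symbol from the annotation of each array type, and where a gene had several probe sets the brightest stood for it. Of the 10 genes, 9 were found among 19938 named genes of the Gene ST arrays and 9 among 18194 named genes of the arrays of the 3′ type. Dsg3 was measured on the Gene ST arrays only, Dsc1 on the 3′ type only, and the other 8 on both.

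Total RNA of whole tissue was hybridised to 53 Affymetrix arrays in 18 groups. Wild-type CB6 mice gave cornea at embryonic days 14.5, 15.5 and 17.5 (E14.5, E15.5, E17.5) and postnatal days 3, 7, 14 and 28 (P3 to P28), and trachea and lung at E18.5, all on 27 Gene ST arrays. The 26 arrays of the 3′ type also came from wild-type CB6 mice, except in 1 group. They covered skin of the back at E14.5, E16.5 or E18.5 and bladder at E14.5 or E16.5. From the digestive tract they covered stomach, esophagus and the proximal part of the small intestine, each at E18.5. The exception was bladder at E18.5, taken from Get1 +/- mice, so bladder age and genotype change together at E18.5. Each group had 3 arrays, except bladder at E14.5 with 2. Labels do not say whether arrays came from separate animals, so p-values measure the spread between these arrays only.

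In a desmosome, the desmosomal cadherins (desmocollins, Dsc, and desmogleins, Dsg) span the membrane and bind those of the neighbouring cell. Inside the cell, plakoglobin and the plakophilins (Pkp) link the cadherin tails to desmoplakin (Dsp), which holds the keratin filaments. Perp is a membrane protein of stratified epithelia that is needed for full desmosome assembly there. Dsg2, Dsc2 and Pkp2 are the widely expressed forms, found in simple epithelia and in heart muscle, whereas Dsc1, Dsg3, Dsc3 and Pkp1 are known mainly from stratified epithelia.

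Of the 10 genes, 1, Dsp, was matched in the RefSeq promoter table (build GRCm38.p6). Its 250 bases before the annotated start, chr13:38151044-38151293 on the plus strand, are printed because desmoplakin is the shared anchor of all desmosomes and was called higher with the cadherins in cornea. Capitals mark each match to the GC box GGGCGG on either strand.
Dsp promoter: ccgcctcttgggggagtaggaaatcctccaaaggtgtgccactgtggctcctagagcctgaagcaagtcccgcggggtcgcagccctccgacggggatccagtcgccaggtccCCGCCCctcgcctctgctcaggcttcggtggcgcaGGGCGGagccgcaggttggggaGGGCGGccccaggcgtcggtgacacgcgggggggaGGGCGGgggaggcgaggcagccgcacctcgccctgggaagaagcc
The window is 72.4% G or C, against a median of 52.4% over 32851 promoter windows of the same length. It holds 4 GC boxes, a motif found in 32.7% of all windows on either strand. The core GGAA of ETS factor sites occurs 2 times, and 93.4% of windows hold it. Neither the grainyhead site AACCGGTT, held by 0.116% of windows, nor the TATA box TATAAA, held by 12.4%, is in these letters. No match overlaps another.

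Levels are given as log2(intensity + 16) after quantile normalization within each array type, so 1 unit is 2-fold and the lowest possible level is near 4. A gene was called when limma's adjusted p fell below 0.05 and the change reached 2-fold. Levels of different genes are not compared with each other, since each comes from its own probe set. Fold changes of dim genes are understated on this scale.

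Several arrays stood apart from their groups or went against their labels. On the 3′ type, 9 arrays (skin at E16.5 and E18.5, and small intestine) differed from the other 17 (skin at E14.5, all bladder, esophagus and stomach). Control probe sets for the 3′ end of the actin mRNA exceeded those for its 5′ end by 0.0536 to 0.455 log2 units in the 9 arrays, against 1.8 to 3.52 in the 17, and those for Gapdh by -0.0586 to 0.313, against 1.13 to 3.7. These ranges do not overlap, and the labels name no batch, so between groups of different sets the array set and the tissue or age cannot be told apart. The third small intestine array, numbered 4 in its title, had Krt5 at 12.53, against 4.14 and 4.45 in the others, and Cdx1, an intestinal factor, at 4, against 11 and 11.18. Its mean over 7 stomach markers was 11.17, against 5.89 in the lowest of its group. The titles of the first and second E14.5 skin arrays carry the same identifier, once with the addition "re", and these arrays had the liver gene Alb at 11.43 and 11.31, against 4.67 in the remaining one. They may be repeat runs of 1 sample. The lung gene Sftpc read 13.73 and 13.21 in a pair of E18.5 skin arrays, against 4.07 in the other. The third E14.5 cornea array was low in Krt5, at 9.09 against 11.41 and 11.46, and high in the neuronal gene Stmn2, at 13.04 against 8.92 and 9.91. The arrays labelled lung had the surfactant gene Sftpc at 6.68 to 6.91, no higher than trachea at 7.21 to 7.44, and the lymphocyte gene Rag1 at 14.15 to 14.25, against 6.75 to 6.83 in trachea. All 10 thymus markers were above the median level of the table in them, and they are called lung-labelled below.

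Most desmosome genes rose in the cornea between E14.5 and E15.5. In a comparison added after seeing the data, 6 of 9 were called higher at P28 than at E17.5 (5.38% of all genes). Against E15.5 only Dsc3 was called at P28 (10.3% of all genes called). No step between neighbouring ages after E15.5 was called. Of the 9 genes, 8 were called higher at P28 than at E14.5 and none lower, against 13.9% of all genes called and 8.4% called higher. Of these, 7 were already called higher at E15.5, against 7.56% of all genes called and 5.3% called higher. Without the third E14.5 array that count was 5, as Dsg2 and Perp lost their calls. The median change of the 9 genes from E14.5 to P28 was 2.72 log2 units, beside -0.11 over all genes. Pkp2 was the exception, with no call in either comparison. In whole tissue, fewer cells of a type and less RNA per cell cannot be told apart.

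**Figure D1:**
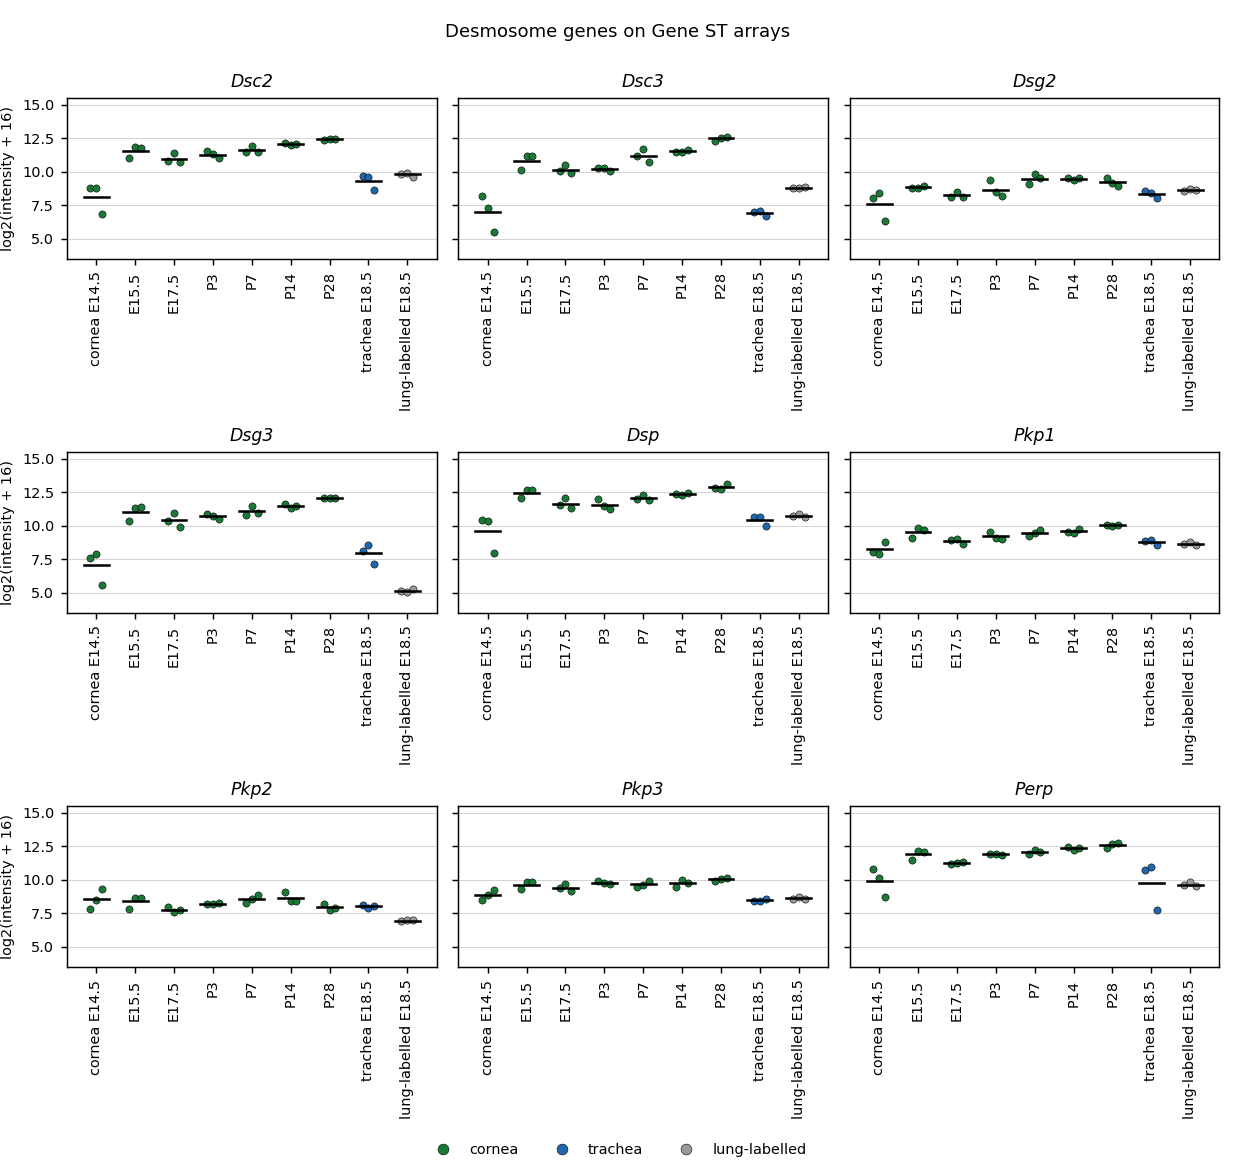
Levels of the 9 desmosome genes on Gene ST arrays, as log2(intensity + 16) on the vertical axis, by cornea age, then trachea and lung-labelled arrays at E18.5. Points are arrays and bars are group means. Dsc2, Dsc3, Dsg3 and Dsp lie lower at E14.5 than at every later cornea age, with the third E14.5 array lowest, and Pkp2 shows no such step.

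The 3 largest changes were in the desmosomal cadherins Dsc3, Dsg3 and Dsc2. Dsc3, a desmocollin of the basal layers of stratified epithelia, read 12.32, 12.5 and 12.62 at P28, against 8.15, 7.29 and 5.51 at E14.5. The difference was 5.50 ± 0.40 (SE), 45.3-fold, with an adjusted p of 2e-10. All P28 arrays lay above all E14.5 arrays, and the E14.5 arrays were spread more widely (SD 1.35) than those at P28 (SD 0.151).

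Dsg3, the desmoglein known as the main antigen of the blistering disease pemphigus vulgaris, read 12.09, 12.1 and 12.04 at P28, against 7.6, 7.89 and 5.59 at E14.5. Its difference was 5.05 ± 0.42, 33.2-fold, with an adjusted p of 1.85e-09. Dsc2, the widely expressed desmocollin, read 12.38, 12.44 and 12.42 at P28, against 8.78, 8.79 and 6.83 at E14.5, a difference of 4.28 ± 0.36 (adjusted p 2.23e-09). For both genes the P28 arrays lay close together and did not overlap the E14.5 arrays. Without the third E14.5 array, the lowest in all 3 genes, the differences were 4.77 for Dsc3, 4.33 for Dsg3 and 3.62 for Dsc2, all still called. Dsg2, the widely expressed desmoglein, changed least of the cadherins: 9.5, 9.18 and 8.89 at P28, against 8.02, 8.39 and 6.33 at E14.5, a difference of 1.61 ± 0.35 (adjusted p 0.00074). Without the third E14.5 array this difference was 0.99 and below the 2-fold limit.

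Most of this change lay between the first 2 ages. Dsg3 was at 10.35, 11.28 and 11.38 at E15.5, 3.98 ± 0.42 above E14.5 (adjusted p 3.2e-07). Dsc3 was 3.83 ± 0.40 higher at E15.5 (2.45e-07) and Dsc2 3.39 ± 0.36 higher (3.52e-07). In each of these genes every E15.5 array lay above every E14.5 array. Dsg2 was 1.27 ± 0.35 higher (0.00928), and without the third E14.5 array 0.65 with an adjusted p of 0.0809.

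Among the plaque proteins, Dsp read 12.8, 12.74 and 13.12 at P28, against 10.4, 10.38 and 7.93 at E14.5. The difference was 3.32 ± 0.41, 9.96-fold (adjusted p 6.48e-07), and at E15.5 it was already 2.88 ± 0.41 (1.34e-05). The third E14.5 array was again far below the others, and without it the P28 difference was 2.50 (1.98e-08). Pkp1, the plakophilin of stratified epithelia, read 10.07, 9.94 and 10.08 at P28, against 8.06, 7.86 and 8.75 at E14.5, a difference of 1.81 ± 0.21 (2.51e-07). Pkp3, which is found in most desmosomes, read 9.93, 10.02 and 10.15 at P28, against 8.46, 8.88 and 9.21 at E14.5, a difference of 1.19 ± 0.18 (1.15e-05). Pkp3 was 0.79 higher at E15.5 than at E14.5, below the 2-fold limit, and without the first E14.5 array its P28 difference was 0.99. For Pkp1 and Pkp3 the third E14.5 array was the highest of its group, the opposite of the cadherins and Dsp.

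Pkp2, the plakophilin of simple epithelia and heart, read 8.18, 7.76 and 7.88 at P28, against 7.79, 8.51 and 9.33 at E14.5. The groups overlapped, and the difference was -0.60 ± 0.27 (adjusted p 0.0781). Over the 7 ages its means spanned 0.87 units. The F test over ages gave an adjusted p of 0.0485, below the 2-fold limit, while the other 8 genes were called over ages, against 21.7% of all genes. Without the first E14.5 array the count was also 8, but Pkp2 was called over ages (span 1.16, adjusted p 0.00359) and Pkp3 was not (0.99).

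Perp read 12.36, 12.68 and 12.77 at P28, against 10.8, 10.13 and 8.72 at E14.5, a difference of 2.72 ± 0.53, 6.59-fold (adjusted p 0.000244). At E15.5 it was 2.00 ± 0.53 higher than at E14.5. Without the third E14.5 array that step was 1.42 with an adjusted p of 0.0596.

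**Figure D2:**
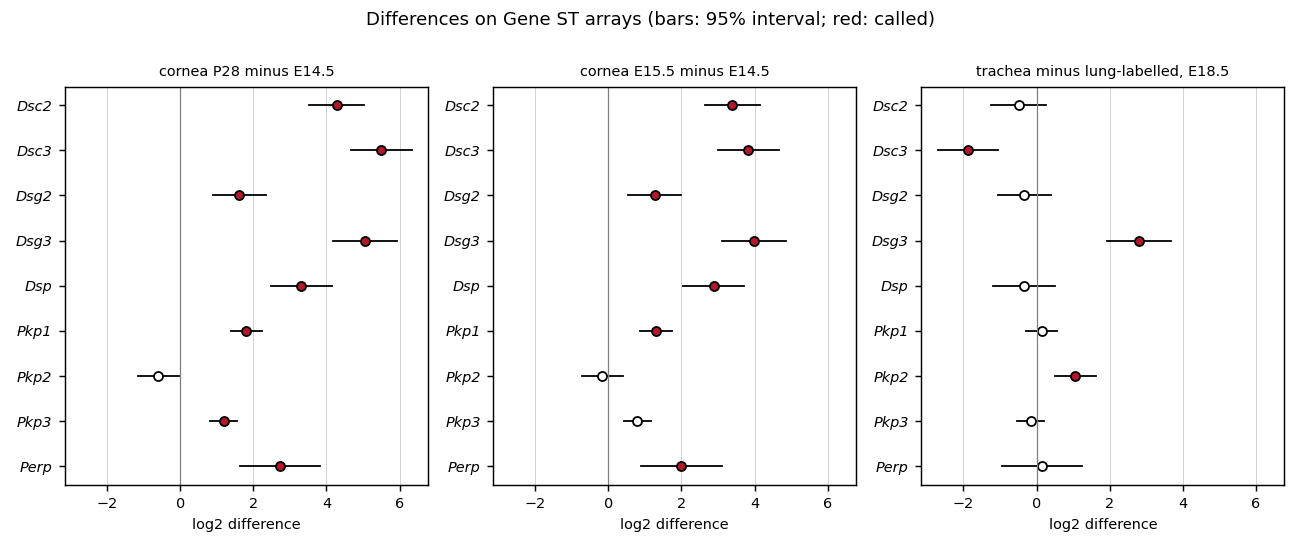
Log2 differences of the 9 genes in the comparisons named above each panel, with 95% intervals from the fit as bars and called genes in red. In cornea all genes but Pkp2 lie above 0 at P28 against E14.5, with Dsc3 at 5.50 and Dsg3 at 5.05. Between trachea and lung-labelled arrays Dsg3 lies at 2.82 and Dsc3 at -1.87.

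After E15.5 no neighbouring ages differed by the call rule in any of the 9 genes. The background was 0.306% of all genes called for E17.5 against E15.5, 1.43% for P3 against E17.5, 1.42% for P7 against P3, 0.015% for P14 against P7 and 4.47% for P28 against P14. At E17.5 all 9 genes had means below those at E15.5, by 0.24 (Pkp3) to 0.80 (Dsp). Dsc3 was 1.00 ± 0.40 higher at P7 than at P3 (adjusted p 0.132) and 0.97 ± 0.40 higher at P28 than at P14 (0.119), with no overlap of arrays in either. In the order of its cornea means, Dsc3 was highest at P28, followed by P14, P7, E15.5, P3, E17.5 and E14.5, and the means of Dsc2 and Dsg3 fell in the same order. None of the first 5 of these steps, down to E17.5, passed the test for any of the 3 genes.

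Ages further apart did differ after E15.5. At P28, 6 of 9 genes were called higher than at E17.5 and none lower, against 11.9% of all genes called and 5.38% called higher. Dsc3, at 12.32, 12.5 and 12.62 at P28, read 10.07, 10.47 and 9.92 at E17.5, a difference of 2.33 ± 0.40 (adjusted p 7.84e-05). The others were Dsg3 (1.67), Dsc2 (1.44), Perp (1.38), Dsp (1.24) and Pkp1 (1.20). The call of Perp (adjusted p 0.0499) was lost when any single array of either age was left out. That of Dsp was lost without the first or the third E17.5 array or the third P28 array. Against P3, 4 of 9 were higher at P28 (10.5% called, 5.65% higher), namely Dsc3 (2.31), Dsg3 (1.39), Dsp (1.32) and Dsc2 (1.14), and 2 without the third P3 array, when Dsp and Dsc2 lost their calls. Against E17.5, 3 of 9 were higher at P14 (4.47% called, 2.2% higher), namely Dsc3 (1.36), Dsg2 (1.24) and Dsc2 (adjusted p 0.0451). That count was 0 without the first or the third array of either age. Of the 10 pairs of ages from E15.5 on that were no neighbours, the other 7 had 1 called gene or none. It was Dsc3 at P28 against E15.5 (10.3% of all genes), P14 against P3 (1.81%) and P28 against P7 (6.43%), and Dsg2 at P7 against E17.5 (3.38%), each higher at the later age. None was called at P3 (1.8%), P7 (2.4%) or P14 (3.55%) against E15.5.

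Genes of related function were read in the same fits. Of 9 measured other desmosome and plaque genes, 5 were higher at P28 than at E14.5 and none lower, with a median of 1.19. Among them were Pof1b (5.49), Dsg1b (4.73), the plaque protein periplakin Ppl (4.45) and plakoglobin Jup (3.19). Of 10 adherens junction genes, 5 were higher and none lower, with E-cadherin Cdh1 (1.95), Ctnnd1 (1.39), Nectin4 (1.36) and Ctnna1 (1.20) among them. Of 9 epithelial regulators, 8 were measured and all 8 were higher, led by Klf4 (4.70), Zfp750 (3.36), Grhl1 (3.34) and Klf5 (3.18).

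Marker genes of cell types moved in the same comparison. All 5 markers of corneal epithelium were higher at P28, with a mean level per array of 13.33 to 13.41 at P28, against 7.54 to 7.88 at E14.5. All 4 neuronal markers were lower, at 5.96 to 6.99 against 9.85 to 12.35, as were all 3 erythroid markers, at 7.22 to 7.33 against 12.5 to 13.15. Lens markers ranged from 10.78 to 14.12 between E14.5 arrays and from 9.33 to 12.08 at P28. At E15.5 the arrays already averaged 10.97 to 11.64 over the corneal epithelium markers, 6.47 to 9.12 over the neuronal, 6.55 to 7.99 over the lens and 7.62 to 9.25 over the erythroid markers. The part of these cell types in the desmosome result was not tested.

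Trachea and the lung-labelled arrays differed in 3 of 9 desmosome genes, 2 higher and 1 lower in trachea, against 16.1% of all genes called, 10.8% higher and 5.26% lower. Dsg3 read 8.13, 8.58 and 7.13 in trachea, against 5.14, 5.01 and 5.25 in lung-labelled arrays, a difference of 2.82 ± 0.42 (adjusted p 8.92e-06). In the lung-labelled arrays its deposited intensity averaged 15.4, below the pseudocount. Pkp2 read 8.13, 7.87 and 8 in trachea, against 6.89, 6.97 and 6.96, a difference of 1.06 ± 0.27 (0.00287). Without the first trachea array the Pkp2 difference fell just below 2-fold, at 0.996.

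Dsc3 ran the other way, at 7.02, 7.06 and 6.65 in trachea, against 8.74, 8.76 and 8.84 in lung-labelled arrays, a difference of -1.87 ± 0.40 (0.000543). Perp read 10.69, 10.94 and 7.73 in trachea, against 9.58, 9.84 and 9.5, and was not called (0.15 ± 0.53, 0.849). Without the third trachea array, which also had the lowest Krt4 of its group (9.76 against 11.67 and 11.92), Perp was 1.18 higher with an adjusted p of 0.0087. Of the other desmosome genes Ppl (2.68), Pof1b (2.47) and Dsg1c (1.04) were higher and Dsg1b (-1.66) lower in trachea, 4 of 9 measured. Of 10 adherens junction genes 5 were higher in trachea, led by Vcl (1.87), as were 3 of 8 regulators, Klf5 (3.28), Klf4 (2.01) and Grhl3 (1.77). The trachea arrays held all 5 cartilage markers above the median level of the table, with a mean of 12.33 to 12.47 against 7.17 to 7.36, and all 5 skeletal muscle markers. The part of these tissues in the result was not tested.

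On arrays of the 3′ type desmosome genes differed between skin and bladder at E14.5 and between skin and small intestine at E18.5. Comparisons within one set of arrays are given first. At E14.5, 6 of 9 genes were higher in skin than in bladder and none lower, against 14.1% of all genes called and 8.11% called higher. At E18.5, all 9 differed between skin and small intestine, 6 higher and 3 lower in skin, against 19.2% of all genes called, 8.99% higher and 10.2% lower. Of the widely expressed genes Dsc2, Dsg2 and Pkp2, all 3 were lower in skin than in small intestine, while the other 6 were higher.

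**Figure D3:**
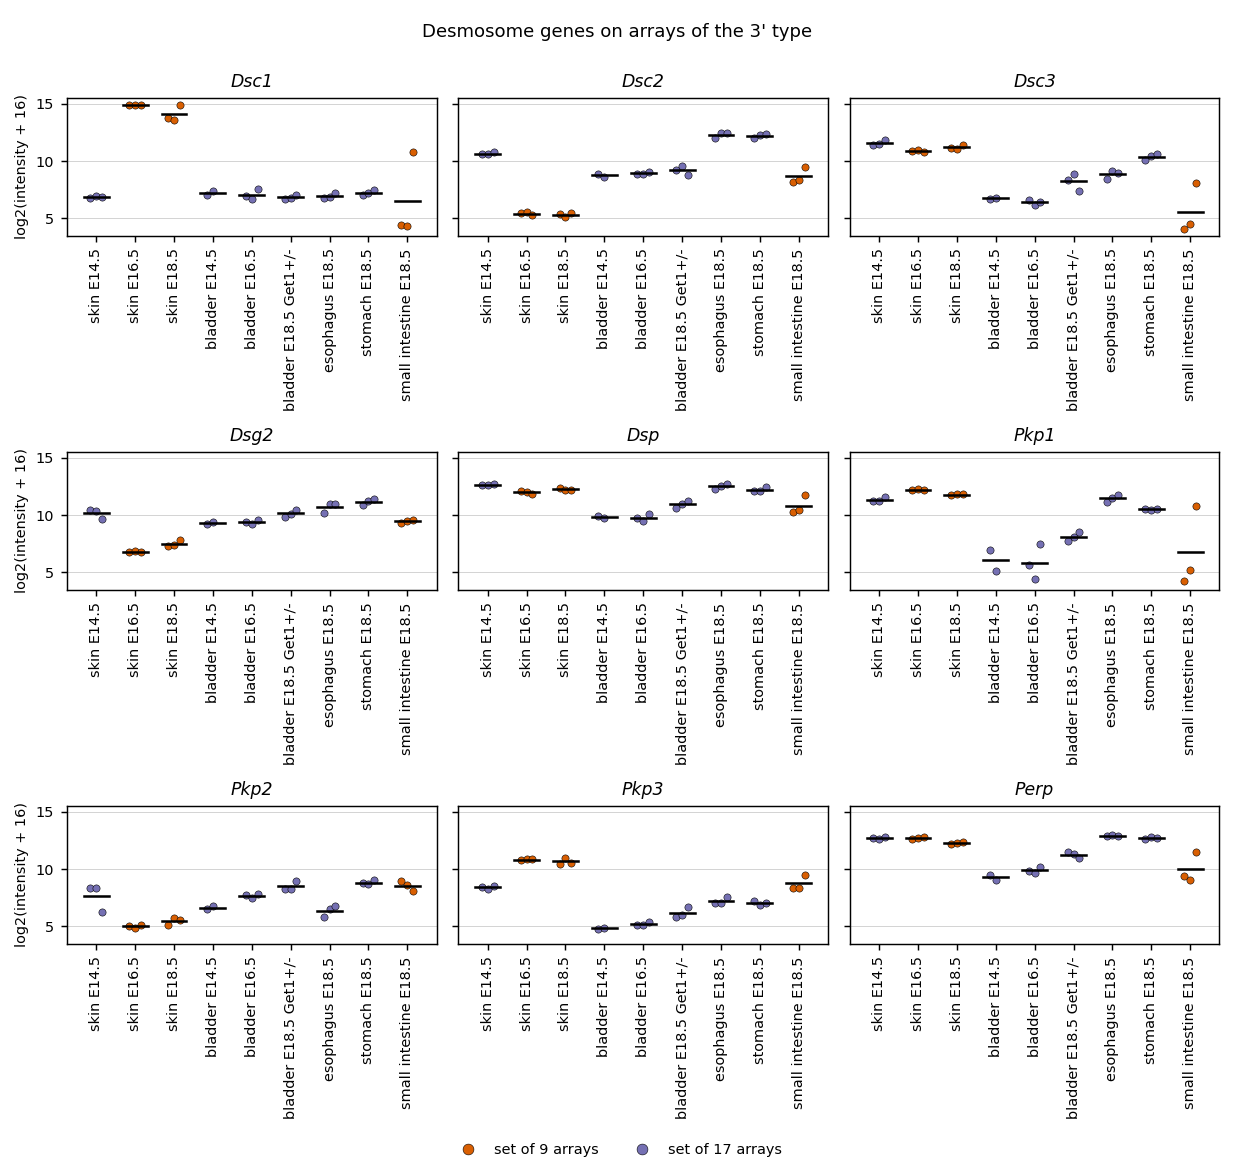
Levels of the 9 desmosome genes on arrays of the 3′ type, as log2(intensity + 16), by tissue and age. Points are arrays, coloured by the set of 9 or of 17 arrays, and bars are group means. Dsc1 lies near 14 to 15 in skin at E16.5 and E18.5 and near 7 in skin at E14.5, and the third small intestine array lies apart from the others for Dsc1, Dsc3, Pkp1 and Perp.

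In E14.5 skin, Pkp1 read 11.22, 11.22 and 11.58, against 6.95 and 5.15 in E14.5 bladder. The difference was 5.29 ± 1.15 (adjusted p 0.00166), and its error is shared with groups that varied widely, such as small intestine (SD 3.56) and E16.5 bladder (SD 1.52). Dsc3 read 11.41, 11.47 and 11.82 in skin, against 6.71 and 6.8 in bladder, a difference of 4.81 ± 0.69 (2.48e-05). The other probe set of Dsc3 differed by 0.45 and was not called (adjusted p 0.22 over all probe sets). Pkp3 read 8.42, 8.28 and 8.51, against 4.82 and 4.86, a difference of 3.56 ± 0.28 (1.56e-08). Skin and bladder did not overlap in any of these genes.

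Perp read 12.68, 12.65 and 12.81 in E14.5 skin, against 9.48 and 9.06 in bladder, a difference of 3.45 ± 0.41 (2.62e-06). Dsp read 12.61, 12.61 and 12.73, against 9.91 and 9.76, a difference of 2.82 ± 0.30 (6.15e-07), and Dsc2 was 1.87 ± 0.28 higher (4.01e-05). Dsc1 was not called by its brightest probe set (-0.28 ± 1.09, adjusted p 0.891), while its other probe set read 4.71 higher in skin. With the first 2 skin arrays left out, 6 genes were called, in a fit where a lone skin array takes its spread from the other groups. Pkp2 was the gene that turned on those arrays: it read 8.36, 8.33 and 6.27 in skin, against 6.52 and 6.75 in bladder. Its difference was 1.02 with all arrays, not called, and -0.36 with the third skin array alone. Without the third skin array Pkp2 was 1.71 higher and called (adjusted p 0.000378), resting on the first 2 skin arrays, which may be repeat runs. Dsg2 read 10.46, 10.36 and 9.67, against 9.2 and 9.4, and its difference of 0.86 ± 0.25 was below 2-fold. Without the third skin array the Dsg2 difference was 1.105 and called (adjusted p 0.00291).

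The same comparison held 6 of 8 measured other desmosome genes higher in skin and none lower, among them Dsg1a (5.39), Dsg1b (4.99), Ppl (3.70) and envoplakin Evpl (3.49). Of 10 adherens junction genes 1 was higher, Cdh1 (1.73). Of 8 measured regulators 5 were higher, led by Grhl1 (3.88), Zfp750 (3.07), Trp63 (2.62) and Ovol1 (2.61). Epidermal markers averaged 9.72 to 10.09 per array in E14.5 skin, against 5.39 to 5.94 in E14.5 bladder.

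In bladder itself none of the 9 genes was called between E16.5 and E14.5 (background 0.341%), and 2 were called higher at E18.5 than at E16.5 (background 6.14% called, 3.99% higher), when genotype also differs. Dsp read 10.63, 10.97 and 11.2 at E18.5, against 9.71, 9.48 and 10.13 at E16.5, a difference of 1.16 ± 0.26 (adjusted p 0.00499). Perp read 11.51, 11.31 and 10.96, against 9.82, 9.65 and 10.18, a difference of 1.37 ± 0.36 (0.0136). Dsp was below 2-fold with the mean of its probe sets (0.79) or the second brightest (0.95), and Perp had an adjusted p of 0.0561 without the second E16.5 array. Pkp1 read 7.73, 8.12 and 8.54 at E18.5, against 5.61, 4.43 and 7.45, and Dsc3 read 8.37, 8.88 and 7.42, against 6.62, 6.15 and 6.46. Neither gene overlapped between the ages, yet neither was called with all arrays (adjusted p 0.141 and 0.0518). Without the small intestine array numbered 4, the same differences of 2.30 and 1.81 had adjusted p-values of 0.00274 and 7.87e-05. With all arrays, the second brightest probe set of Dsc3 differed by -0.24 and was not called (adjusted p 0.55). Urothelial markers averaged 9.52 to 9.95 at E18.5, against 8.26 to 8.4 at E16.5. Markers of other tissues were higher at E18.5 too: skeletal muscle averaged 9.28 to 9.72, against 6.48 to 7.61, smooth muscle 12.07 to 12.23, against 11.3 to 11.53, epidermis 7.08 to 7.32, against 5.5 to 6.43, simple epithelium 10.1 to 10.45, against 9.05 to 9.28, and neurons 8.78 to 8.88, against 7.08 to 7.72. Erythroid markers were lower, at 5.27 to 6.32 against 7.15 to 7.7. The part of these tissues in the result was not tested. Get1, also named Grhl3, read 7.43, 7.33 and 7.7 in the Get1 +/- bladders at E18.5, against 6.85, 6.85 and 7.39 in wild-type bladders at E16.5, and was not called (0.46 ± 0.88, adjusted p 0.801).

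E18.5 bladder differed from E18.5 esophagus in 6 of 9 genes, 1 higher and 5 lower in bladder, against 11.2% of all genes called, 6.37% higher and 4.85% lower. Pkp2 was the gene higher in bladder, at 8.25, 8.26 and 9 against 5.8, 6.53 and 6.77 in esophagus, a difference of 2.13 ± 0.39 (adjusted p 0.00038). Pkp1 read 7.73, 8.12 and 8.54 in bladder, against 11.17, 11.45 and 11.73 in esophagus, a difference of -3.32 ± 1.03 (0.0195). Dsc2 read 9.26, 9.53 and 8.81, against 12.02, 12.44 and 12.45, a difference of -3.10 ± 0.25 (1.79e-08). Neither of these overlapped.

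Perp (-1.62 ± 0.36, 0.00225), Dsp (-1.59 ± 0.26, 0.000149) and Pkp3 (-1.04 ± 0.25, 0.00434) were also lower in bladder. The second probe set of Pkp3 did not share that direction, at 0.33, and Pkp3 was below 2-fold without the first or second bladder array or the esophagus array numbered 4. Pkp1 had an adjusted p of 0.056 without the first bladder array and 0.0564 without that esophagus array. Dsc3 (-0.62, 0.496) and Dsg2 (-0.54, 0.0819) were not called. Of 8 measured other desmosome genes 5 were lower in bladder and none higher, among them Pof1b (-2.55), Ppl (-2.11), Dsg1b (-1.86) and Jup (-1.14), and 4 of 8 regulators were lower, including Trp63 (-2.68) and Grhl2 (-1.58). Of 10 adherens junction genes 1 was lower, Cdh1 (-1.13). Markers of nonkeratinised stratified epithelium averaged 8.06 to 8.59 in bladder, against 11.44 to 12.15 in esophagus.

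Esophagus and stomach at E18.5 differed in 1 of 9 genes, against 7.05% of all genes called and 4.25% called lower in esophagus. Pkp2 read 5.8, 6.53 and 6.77 in esophagus, against 8.76, 8.66 and 9.03 in stomach, a difference of -2.45 ± 0.39 (adjusted p 0.000152). Dsc3 read 8.47, 9.11 and 8.96 in esophagus, against 10.06, 10.42 and 10.65 in stomach, without overlap (-1.53 ± 0.62, 0.11), and its adjusted p was 0.000269 without the small intestine array numbered 4. Dsp (0.30, interval -0.25 to 0.85), Perp (0.17, -0.59 to 0.93) and Dsc2 (0.11, -0.42 to 0.63) were not called, and their intervals stayed below 1 unit. The mean of the stratified epithelium markers was 11.44 to 12.15 in esophagus and 10.76 to 11 in stomach.

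**Figure D4:**
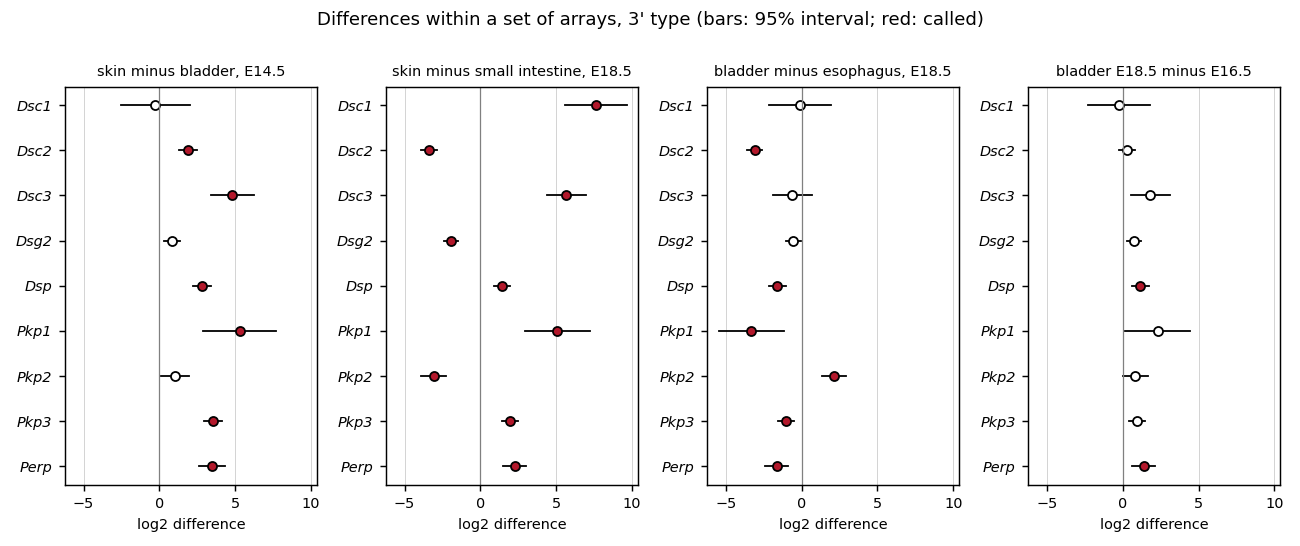
Log2 differences of the 9 genes for skin minus bladder (E14.5), skin minus small intestine, bladder minus esophagus (both E18.5) and bladder at E18.5 minus E16.5, each within one set of arrays, with 95% intervals as bars and called genes in red. Dsc3, Pkp1, Pkp3, Dsp and Perp lie above 0 in skin against both bladder and small intestine, and Pkp2 at 2.13 is the called gene above 0 in bladder against esophagus.

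Skin and small intestine at E18.5 lay in the same set of arrays and differed in every gene. Dsc1, the desmocollin of the upper epidermis, read 13.78, 13.56 and 14.89 in skin, against 4.38, 4.31 and 10.78 in small intestine. Its difference was 7.59 ± 0.98 (adjusted p 3e-06), and 9.73 without the small intestine array numbered 4, which alone was high. Dsc3 read 11.14, 11.04 and 11.39 in skin, against 4.04, 4.5 and 8.07, a difference of 5.66 ± 0.62 (3.14e-07), and 6.92 without that array. Pkp1 read 11.73, 11.84 and 11.8, against 4.24, 5.18 and 10.81, a difference of 5.05 ± 1.03 (0.000506), and 7.09 without it.

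Perp was 2.25 ± 0.36 higher in skin (4.66e-05), Pkp3 1.92 ± 0.25 (4.25e-06) and Dsp 1.42 ± 0.26 (0.000214). The other 3 genes were lower in skin. Dsc2 read 5.35, 5.1 and 5.48 in skin, against 8.17, 8.35 and 9.52, a difference of -3.37 ± 0.25 (1.06e-09). Pkp2 read 5.17, 5.7 and 5.55, against 8.97, 8.64 and 8.06, a difference of -3.08 ± 0.39 (2.4e-06). Dsg2 read 7.28, 7.4 and 7.79, against 9.32, 9.44 and 9.56, a difference of -1.95 ± 0.23 (7.22e-07). All 9 genes were also called without the array numbered 4, in the same directions. All 9 were called without any single skin array too, those with high Sftpc included. With the 2 groups fitted alone 6 were called, and Dsp (adjusted p 0.0618), Perp (0.0607) and Pkp1 (0.0955) were not. Of the 23 probe sets that the 9 genes have on this array type, 11 were called higher and 9 lower, and no gene had probe sets called in both directions. The share over all probe sets was not taken, and 19.2% of all genes were called here.

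Other desmosome genes followed, with 5 of 8 measured higher in skin and none lower, among them Dsg1a (6.37), Ppl (3.49), Evpl (2.87) and Pof1b (2.73). Of 10 adherens junction genes 3 were higher, P-cadherin Cdh3 (7.88), Nectin4 (3.47) and Nectin1 (1.85), and 2 were lower, led by Ctnnd1 (-1.14). Markers of simple epithelium averaged 7.17 to 7.92 in skin, against 11.76 to 12.05 in small intestine. From E16.5 to E18.5 in skin none of the 9 genes was called, against 4.44% of all genes. Dsg2 was nearest, at 7.28, 7.4 and 7.79 at E18.5, against 6.75, 6.86 and 6.78 at E16.5, a difference of 0.69 ± 0.23 (adjusted p 0.0481), below 2-fold.

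The remaining comparisons set arrays of one set against arrays of the other, and array set and group cannot be told apart in them. In skin, 5 of 9 genes were called between E16.5 and E14.5, 2 higher and 3 lower, against 43.2% of all genes called, 18.2% higher and 25% lower. Dsc1 read 14.89 in each E16.5 array, against 6.81, 6.97 and 6.9 at E14.5, a difference of 7.99 ± 0.98. Its probe set was number 2 in brightness on each E16.5 array, with deposited intensities of 83930, 84040 and 88970, so quantile normalization gave all of them one value. The other Dsc1 probe set differed by 1.29 (adjusted p 0.174 over all probe sets).

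Pkp3 read 10.75, 10.89 and 10.85 at E16.5, against 8.42, 8.28 and 8.51 at E14.5, a difference of 2.43 ± 0.25, and its second probe set differed by 4.56. Dsc2 read 5.45, 5.54 and 5.28 at E16.5, against 10.6, 10.6 and 10.75, a difference of -5.22 ± 0.25, while its second probe set differed by -0.43 and was not called. Dsg2 (-3.37 ± 0.23) and Pkp2 (-2.64 ± 0.39) were also lower, Pkp2 by -1.26 when the first 2 E14.5 arrays were left out. The probe sets of Dsg2 ranged from -5.30 to 1.41, and both ends were called. For Dsp the brightest probe set differed by -0.67 and that ranked 3 in brightness by 6.74. Of all 23 probe sets 6 were called higher and 7 lower, in a comparison where 43.2% of all genes were called. The share over all probe sets was not taken, so this count is no result about the desmosome genes. The part of the 3′ and 5′ difference between the array sets in these values was not tested.

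**Figure D5:**
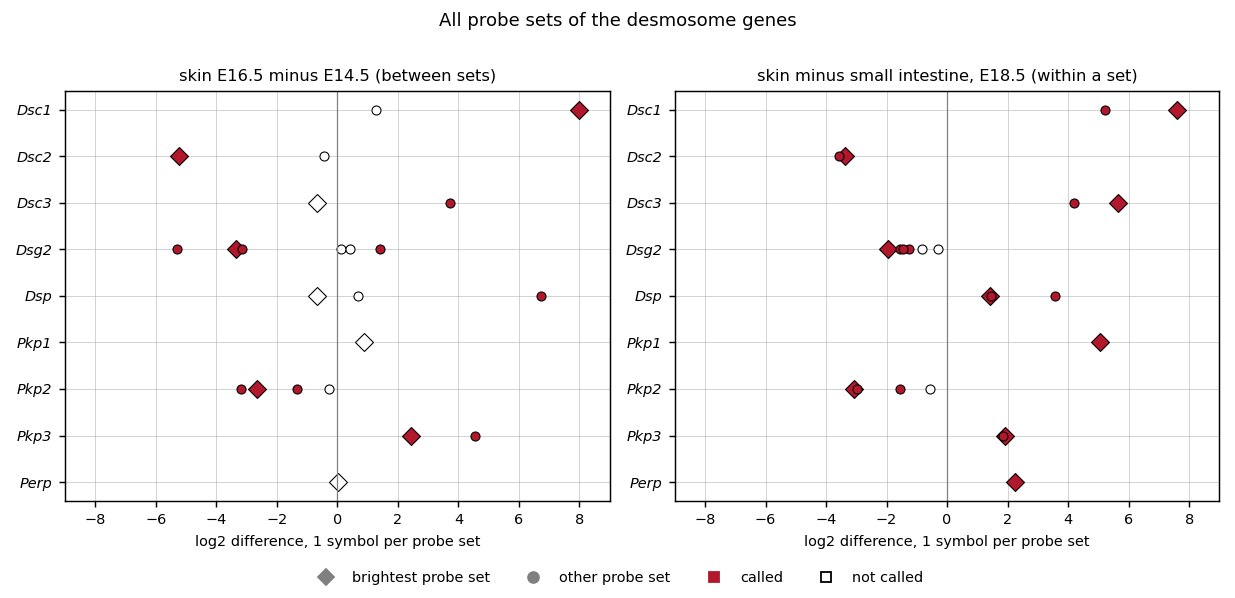
Log2 differences of all 23 probe sets of the 9 genes, 1 symbol per probe set, for skin at E16.5 minus E14.5 (left, between the array sets) and for skin minus small intestine at E18.5 (right, within a set). Diamonds are the brightest probe sets and red marks called ones. On the left the probe sets of Dsg2 spread from -5.30 to 1.41 and those of Dsp from -0.67 to 6.74, while on the right no gene has called probe sets on both sides of 0.

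At E18.5, skin and bladder differed in 8 of 9 genes (background 46%), skin and esophagus in 5 (48.9%), skin and stomach in 5 (48.3%), and esophagus and small intestine in 8 (48.8%). Dsc1 was the gene not called between esophagus and small intestine (0.45), and without the small intestine array numbered 4 it was 2.60 higher in esophagus (5.54e-08). Bladder and small intestine differed in 3 genes (45.2%), a share below that of all genes, with Dsc3 (2.69, but -0.69 in its second probe set) and Perp (1.26) higher and Pkp3 (-2.59) lower in bladder. Without the small intestine array numbered 4 the count was 5, with Dsc1 (2.51) and Pkp1 (3.42) also higher. The shares for skin against esophagus or stomach lay near those of all genes. All 9 genes were called in the F test over the 5 tissues at E18.5 (71.1% of all genes), and 8 in that over bladder, esophagus and stomach, which share a set (17.3%). Skin and bladder differed in their change between E16.5 and E14.5 in 5 genes (42.2%). Dsc1 was 7.22 higher in skin than in bladder, 7.13 higher than in esophagus and 6.84 higher than in stomach. Dsc2 was -3.90, -6.99 and -6.89 in the same comparisons, which share the skin arrays. Dsp differed from esophagus by -0.27 in its brightest probe set and by 1.18 in its second.

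The order of group means, taken from the brightest probe set of each gene, gave few separated neighbours. On the 3′ type this order mixes both sets of arrays, so array set and group cannot be told apart between them. For Dsc2 on the 3′ type, esophagus (12.3) and stomach (12.2) came first and were not separated, followed by E14.5 skin (10.65). Then came E18.5, E16.5 and E14.5 bladder (9.2, 8.93 and 8.77) and small intestine (8.68), which were not separated from one another in turn. That holds for the brightest probe set only. Dsc2 in E18.5 bladder against small intestine was -3.869 with the second brightest (adjusted p 3.74e-11) and -1.673 with the mean of probe sets (1.76e-06), both called. For Perp, esophagus (12.88), skin at E16.5 and E14.5 (12.72 each), stomach (12.71) and E18.5 skin (12.26) formed one run without a called step, and the step from E18.5 bladder (11.26) to small intestine (10) was the only one called. For Pkp1 no step between neighbours was called in the order of 9 groups, although its means ran from 12.2 in E16.5 skin to 5.83 in E16.5 bladder. The error of these steps is shared with small intestine, whose array numbered 4 read 10.81, against 4.24 and 5.18. Without that array Pkp1 was 3.42 higher in E18.5 bladder than in small intestine and called (adjusted p 1.44e-05), against 1.39 with all arrays. On the Gene ST arrays the only called steps of Dsg3 were those from E17.5 cornea (10.41) to trachea (7.95) and from E14.5 cornea (7.03) to lung-labelled arrays (5.13).

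Across the 9 groups of the Gene ST arrays, the group means of the desmosome genes ran together, except those of Pkp2. The median Pearson r was 0.86 over all 36 pairs, with a range of 0.18 to 0.985, the highest for Dsc2 with Dsp. Pairs with Pkp2 ran from 0.18 (Dsp) to 0.564 (Dsg3), and the lowest pair without Pkp2 was Dsg2 with Dsg3 (0.625). On the 3′ type the median was 0.247 and the range -0.889 to 0.964, with Dsc2 and Dsg2 at the top, and Dsc1 and Dsg2 at the bottom. In skin at E16.5 and E18.5, Dsc1 had its highest means (14.89 and 14.08) and Dsg2 its lowest (6.795 and 7.488). These correlations describe 9 means that share arrays, tissues and, on the 3′ type, the array sets. No median r among other genes was set beside them, so they are not shown to be particular to desmosome genes.

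Among 10344 genes of the Gene ST arrays whose means spanned at least 1 unit, the patterns most like Dsg3 were those of Zfp185 (r 0.996), Hlf (0.996) and Reps2 (0.988). Most like Dsp were Snap29 (0.986), Crybg1 (0.986) and Snx13 (0.981), and most like Dsc2 were Egln3 (0.991), Crybg1 (0.986) and Trim29 (0.984). Perp was most like Tmem51 (0.99), S100a14 (0.99) and Zfp750 (0.987), and Pkp1 most like Crybg2 (0.988), Capns2 (0.981) and Grhl1 (0.977). On the 3′ type Perp was most like Pof1b (0.967), and Pkp1 most like Cd109 (0.98) and Serpinb5 (0.979).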

How the data were processed

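Total RNA was measured on 53 Affymetrix arrays of 2 types, each deposited as a table of its own. Per the submitters' processing notes, the authors computed the deposited intensity values with PLIER 2.0 in Affymetrix Expression Console 1.1.1, with any normalization between arrays not given in the sources used here. Genes were named through the platform annotation, and RefSeq held 99.58% and 99.42% of those naming a single gene. Left out were 1621 and 932 that name several genes and 12146 and 9211 that name none.

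Levels are log2(intensity + 16), quantile-normalized within each table. Tests used limma 3.58.1 in R 4.3.3 over all groups of a table, two-sided, with Benjamini-Hochberg adjustment over all genes and a 2-fold limit. Arrays have no read depth, so their number limits the precision. Named genes were all 10 members and up to 4 called genes with the largest differences from each of 3 lists of related genes. For some members only, up to 3 of the genes most alike by Pearson r over group means were also named. Genes of 20 marker lists were used to describe samples and label checks. The members and lists were chosen with earlier results of these data known. The fits were tried on simulated arrays, where some genes with a mean above the table's median level were changed by known folds. Of those changed 2-fold, 40% were called for P28 against E14.5 cornea and 38% for E16.5 against E14.5 skin. At 4-fold 98% were called in both, with 2 and 6 false calls. A missing call therefore does not show that a gene changed less than 2-fold. Correlations were computed in R, and figures used Python 3.11.15 and matplotlib 3.10.9. Alternatives covered normalization, pseudocount, filters, probe sets, the fit, the replicate block and single arrays.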

Additional observations from a re-analysis of the deposited data

Results flagged for a closer look

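Skin and bladder differed in their change between E16.5 and E14.5 in 5 desmosome genes by limma's interaction term, given as the skin change minus the bladder change. It was 8.093 for Dsc1, 2.04 for Pkp3, -5.376 for Dsc2, -3.678 for Pkp2 and -3.468 for Dsg2, on the log2 scale, with adjusted p-values of 9.42e-05, 0.000128, 2.73e-10, 2.12e-05 and 3.4e-08 in that order. With the second brightest probe set, Dsc1 (1.783, adjusted p 0.247) and Dsc2 (-0.4696, 0.346) were not called in this test, while Dsc3 was (3.875, 8.11e-09). The E16.5 skin arrays belong to the set of 9 arrays and the other 3 groups to the set of 17, so array set and skin age cannot be told apart, and 42.2% of all genes were called in the same test. With the first 2 E14.5 skin arrays left out, 5 genes were called, but that fit holds a single E14.5 skin array, whose spread is assumed to be that of the other groups.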

How the results depend on the processing

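Each result was recomputed with unnormalized deposited values, with a pseudocount of 1, over genes above the table's median level, with the mean of all probe sets or the second brightest one, another variance model, only the groups compared, and without each array in turn. Each of the 9 genes has 1 probe set on the Gene ST arrays, as have Pkp1 and Perp on the 3′ type. For these the probe set settings leave the difference unchanged and do not check it. Counts of called members mostly stayed within 1.5 times. Exceptions were P28 against P14 cornea (1 as deposited, against 0), bladder at E18.5 against E16.5 (1 with the mean of probe sets or the second brightest, 4 with only the arrays of its set, against 2), cornea P14 against E17.5 (1 with a pseudocount of 1, 5 with only the groups compared, against 3), bladder against small intestine (6 with the second brightest probe set, 1 with only the groups compared, against 3) and esophagus against stomach (2 with the second brightest probe set, only the groups compared or only the arrays of the set, against 1). Without single arrays the counts ranged from 7 to 8 for cornea P28 against E14.5, 5 to 7 for E15.5 against E14.5, 4 to 6 for P28 against E17.5, 0 to 3 for P14 against E17.5, 2 to 4 for P28 against P3, 2 to 4 for trachea against lung, 1 to 4 for bladder at E18.5 against E16.5, 6 to 8 for skin against bladder at E14.5, 4 to 6 for bladder against esophagus, 2 to 5 for bladder against small intestine and 1 to 2 for esophagus against stomach. The choice of the set of 9 or 17 arrays, and leaving out the small intestine array or the E14.5 skin arrays, were added after seeing the data, as were the comparisons of P28 and P14 with E17.5, P28 with P3, and bladder with small intestine.

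Where a value was called in either fit, its direction turned only with the choice of probe set, and the cause was not tested. Values called in neither fit also changed sign, 47 with arrays left out or averaged, 15 with another probe set and 5 as deposited, among them Pkp2 in skin against bladder at E14.5 (-0.3642 without the first 2 skin arrays, against 1.018). With the mean of all probe sets, skin at E16.5 against E14.5 gave 1.523 for Dsc3 and 2.253 for Dsp, the skin minus bladder change gave 1.767 and 2.2 for the same genes, skin against esophagus gave 2.507 for Dsp, and esophagus against small intestine gave -0.3513 for Dsp. With the second brightest probe set, Dsc3 was 3.733 for skin at E16.5 against E14.5, 3.875 for the skin minus bladder change and -0.5022 for esophagus against small intestine. Dsc2 was 0.308 for skin against bladder at E18.5 and -1.273 for esophagus against small intestine, Dsc1 4.707 for skin against bladder at E14.5, Dsp 1.18 for skin against esophagus, and Pkp3 0.3319 for bladder against esophagus. Bladder against small intestine gave -1.673 for Dsc2 and -1.541 for Dsp with the mean of probe sets, and -3.869, -1.701 and -0.6944 for Dsc2, Dsp and Dsc3 with the second brightest.

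With the replicate block, the comparisons whose groups share replicate numbers kept their counts, 8 for cornea P28 against E14.5 among them, except P28 against E17.5 (5, against 6). Correlations of deviations between same-numbered arrays passed 0.1 for every pair only in cornea P28 against P14 (0.133 to 0.242). Corneas of different ages are unlikely to share animals, so passing this limit does not show pairing. In esophagus against stomach at E18.5 the correlations ran from 0.0644 to 0.13. With so few arrays per group, whether the numbers pair any groups cannot be decided from these values. Signal near the floor limits the dim genes, whose folds are understated.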
